A study of Rattus norvegicus with 14 samples.

Results

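Translation factors are the proteins that bring an mRNA, a ribosome and the aminoacyl-tRNAs together, and their mRNAs were followed here in colonocytes of rats on diets normal in protein (NPD) or high in it (HPD). A gene was included when the name the array gives it begins with Eif and a digit, or with Eef1 or Eef2. The array held 63 such gene names among 26276, measured by 82 probes and 224 spots. The names Eif2c2, Eif2c3 and Eif2c4 met this rule, but RefSeq lists them as synonyms of Ago2, Ago3 and Ago4, which encode Argonaute proteins of small RNA silencing, which leaves 60 names. Eef1e1, one of these, is no elongation factor either, and all 63 genes are called factors here for short. The others were grouped by complex from their names alone, so that a member need not act in the step of its group. These groups held 5 names for eIF1 and eIF1A, 5 for eIF2 and other carriers of the initiator tRNA, 4 for the kinases of eIF2-alpha, 5 for eIF2B, 13 for eIF3 and 11 for eIF4. There were also 4 for proteins that bind eIF4E, 3 for subunit joining, 2 for eIF5A, 6 for eEF1, 1 for eEF2 and 1 for the eEF2 kinase.

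Both groups were young male Wistar rats, without any allele or agent named in the labels, and were kept on the same standard diet beforehand. NPD and HPD were isocaloric, supplied 14% and 55% of energy as whole milk protein and were fed ad libitum for 15 days. In the HPD, protein took the place of starch and sucrose. Each group held 7 rats, and RNA of epithelial cells detached with EDTA from the colon of a rat, without its last segment, was hybridised to 1 array with a single dye.

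In initiation, eIF2 bound to GTP carries the initiator methionyl-tRNA to the small ribosomal subunit, together with eIF1, eIF1A and the large scaffold eIF3. The eIF4 proteins recognise the cap of the mRNA, unwind its leader and deliver it. After the start codon is found eIF2 leaves bound to GDP, and eIF2B, a nucleotide exchange factor, recharges it. Stress kinases phosphorylate the alpha subunit of eIF2, which turns it into an inhibitor of eIF2B. During elongation eEF1A delivers aminoacyl-tRNAs, the eEF1B subunits recharge eEF1A, and eEF2 moves the ribosome along. In the intestinal epithelium, whose cells are replaced within days, protein synthesis is a large share of the cells' work.

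Values are log2 of the background-subtracted intensity minus the median of the array, so that 0 is the signal of the middle probe of that array and a difference of 1 is a doubling. Where a gene had several probes, the one with the highest mean signal stands for it unless another is named. Differences are HPD minus NPD with the standard error (SE) of the fit with limma (n = 7 rats per group), and a gene was called at a Benjamini-Hochberg adjusted p below 0.1 over all 30367 probes. Exact permutation tests, two-sided and unadjusted, are given for single genes over all splits of the arrays and within slides. Within slides the test takes the mean of the differences on each slide. That mean can be smaller than the printed difference, which pools the slides. Signals of different probes were not compared as levels.

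The arrays lay on 2 slides, with 4 NPD and 3 HPD arrays on slide 1 and 3 NPD and 4 HPD arrays on slide 2. The median intensity of an array was 66.0 to 100.3 in NPD and 53.5 to 75.1 in HPD (exact permutation test, p = 0.0052 over all splits and 0.0049 within slides). Its part in the results below was not tested. All 8 markers of epithelium were well above background, among them Epcam and Cdh1, with a summed linear signal of 5500 to 6836 array medians in NPD and 5336 to 7709 in HPD. Of the goblet cell markers 4 of 6 were lower in HPD, with sums of 4910 to 7387 and 3838 to 9715 and a median difference of -0.40, beside -0.36 for the eIF2B genes described below. The stromal and muscle markers summed to 12.7 to 27.5 in NPD and 10.5 to 22.1 in HPD, with Col3a1 and Dcn not well above background. The 5 absorptive markers on the array were all higher in HPD (Car1 was lower after cyclic loess) with overlapping sums (1332 to 1960 and 1205 to 2378), stem and cycling markers summed to 66.9 to 114.7 and 58.4 to 104.7 with Lgr5 not well above background, and red blood cell markers to 36.1 to 61.0 and 45.7 to 151.3 with Alas2 not well above background. None of these markers was called. At an unadjusted p under 0.05 (limma), Agr2 at -0.63 ± 0.24 and Clca1 at -0.56 ± 0.25 of the goblet list, Top2a of cycling cells at -0.68 ± 0.27, the keratin gene Krt19 at -0.36 ± 0.14 and Lyz2 of myeloid cells at -0.56 ± 0.24 were lower in HPD. By the same rule the collagen genes Col1a1 at 0.35 ± 0.11 and Col3a1 at 0.61 ± 0.18 and the globin gene Hba-a2 at 0.52 ± 0.17 were higher. Their lists were mixed: 4 epithelial genes were lower and 4 higher, and 3 stem and cycling genes lower and 2 higher. Of the stromal and muscle genes 4 were lower and 4 higher, and of the red blood cell genes 0 and 3. Cd68, also of myeloid cells, was at 0.00 ± 0.17. The part of these markers in the results was not tested. In bulk samples fewer cells of a type and less RNA per cell cannot be told apart. HPD replicate 1 was the lowest or the highest HPD rat for 25 and 17 of the 63 genes, HPD replicate 7 for 7 and 30, and NPD replicate 1 the lowest or the highest NPD rat for 28 and 8. Leaving out an array changed the calls among the 63 genes only for HPD replicate 1, and those calls are given both ways.

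The factors with the clearest differences are shown by the 60-base probes that measured them, in lower case as they stand on the array, 5′ to 3′, with positions of the rn4 build (RGSC v3.4) that the array design gives. They are printed so that the transcript stretch behind each value can be found, and only probes with at least 1 forward reading frame free of stop codons are printed. The probes for Eif2b1 (12:33140818-33142683, plus strand), Eif3g (8:19919288-19919488, minus strand) and Eef2 (7:10018036-10018179, minus strand) map over 1866, 201 and 144 bases of the genome and so join sequence from different exons. The probes for Eif2b3 (5:137381021-137381080 and 5:137363958-137364017, plus strand) start 17063 bases apart. Eif2b4 was read at 6:25163070-25163129 (plus strand) and Eif3d at 7:115878137-115878196 (minus strand).
Eif2b1: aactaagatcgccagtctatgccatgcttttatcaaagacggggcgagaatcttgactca
Eif2b3, first probe: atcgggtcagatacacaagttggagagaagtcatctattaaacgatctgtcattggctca
Eif2b3, second probe: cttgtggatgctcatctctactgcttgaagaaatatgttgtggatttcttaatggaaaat
Eif2b4: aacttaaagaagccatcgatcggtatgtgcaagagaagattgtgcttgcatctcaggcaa
Eif3d: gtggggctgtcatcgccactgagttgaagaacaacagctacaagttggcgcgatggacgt
Eif3g: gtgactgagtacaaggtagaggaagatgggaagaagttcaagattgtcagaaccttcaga
Eef2: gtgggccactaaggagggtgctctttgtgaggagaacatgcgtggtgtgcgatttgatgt

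No translation factor was called between NPD and HPD. The count was 0 of 63, against 0.056% of all probes, and the adjusted p of the 63 genes ran from 0.417 to 0.995 (limma). At an unadjusted p under 0.05 limma gave 8 genes lower in HPD and none higher. These were Eif2b3, Eif2b1, Eif2b4, Eif3d, Eif3g, Eif1, Eef2 and Eef2k. Of all probes 5.55% were lower and 5.86% higher by this rule, and of the 17952 probes well above background on every array of a group 8.5% were lower and 5.19% higher. The exact test within slides gave 12 genes lower and 2 higher, against 7.72% and 7.43% of the probes with a value on every array. For none of the 63 genes did all HPD rats lie outside the NPD range, a separation that 0.145% of probes showed downwards and 0.128% upwards.

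Over all 63 genes the direction was divided. With this centring 33 genes were lower and 30 higher in HPD, with a median of -0.02, while the median of all probes was 0.11 and 35.8% of probes were lower. Relative to that median of all probes 45 of the 63 lay below it. Of the 17952 probes well above background on every array of a group 43.2% were lower, with a median of 0.05. In that set 31 of 60 genes were lower, with a median of -0.01. The split depended on the scaling: 44 of 63 genes were lower after cyclic loess, where the median of all probes was 0.00, and 24 were lower when arrays were centred on the median of all spots, an alternative chosen after seeing the data. By complex, cyclic loess gave 10 of 13 eIF3, 9 of 11 eIF4 and 5 of 6 eEF1 genes lower, in place of 7, 6 and 2, and left eIF2B at 4 of 5. The difference also varied with signal over all probes, with probes sorted by mean signal into 10 classes of equal size. The median difference of all probes was 0.13 in class 10, the brightest, which held 23 of the 63 genes at a median of 0.08. It was -0.04 in class 7, which held 7 of them at a median of -0.16.

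**Figure D1:**
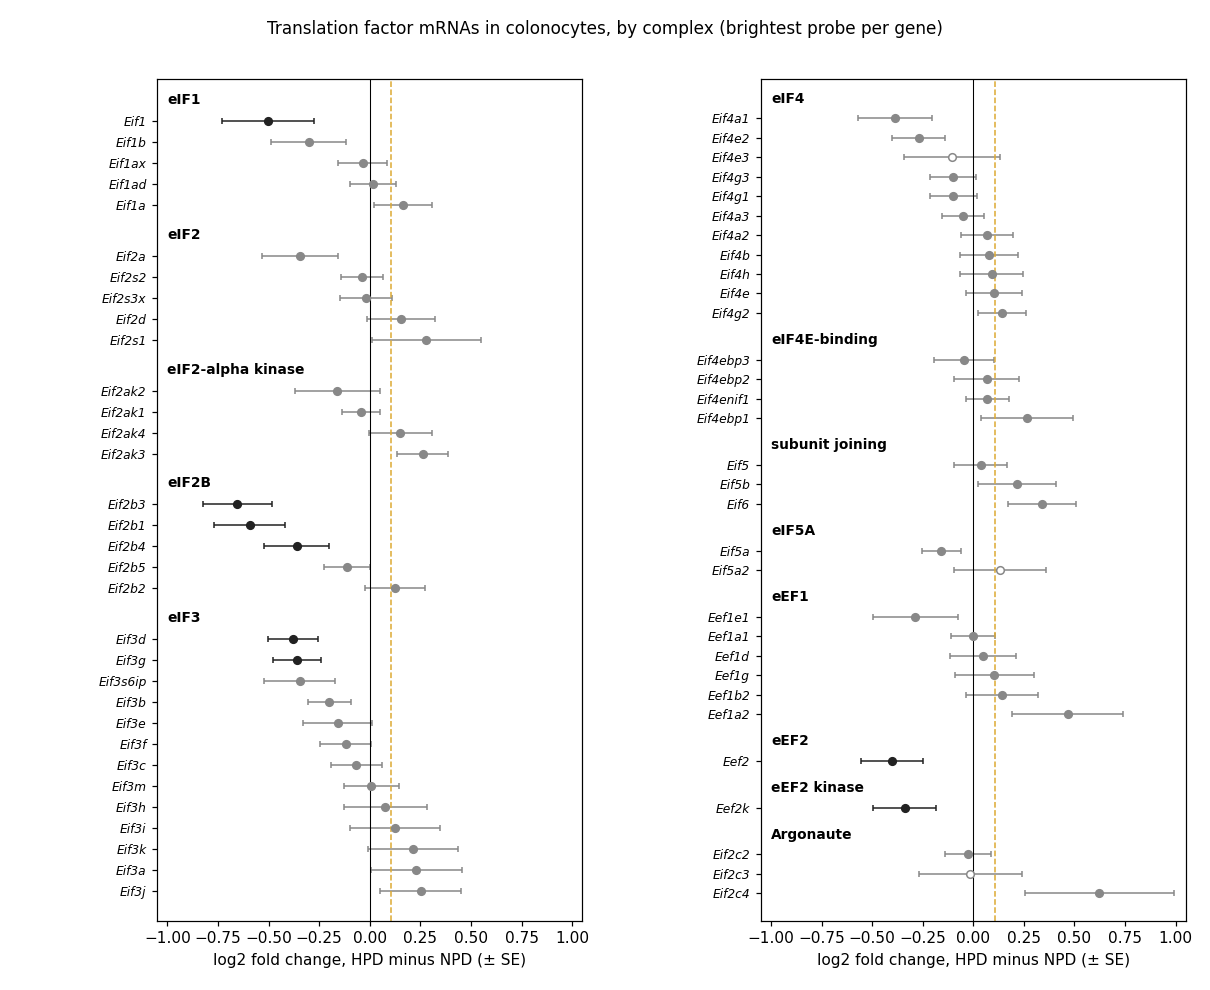
Difference in log2 signal between HPD and NPD (x axis, bars are SE of the fit, n = 7 rats per group) for the brightest probe of each of the 63 genes, grouped by complex. Black points had an unadjusted p under 0.05, open circles were not well above background on every array of either group, and the dashed line is the median of all probes at 0.11. The lowest points are Eif2b3 and Eif2b1, both subunits of eIF2B, and none of the 63 was called.

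The guanine nucleotide exchange factor eIF2B had the lowest median difference among the groups with several genes. Of its 5 subunits 4 were lower in HPD, 3 of them with an unadjusted p under 0.05, and the median difference was -0.36. eIF2B has a regulatory part of alpha, beta and delta subunits, which senses phosphorylated eIF2, and a catalytic part of gamma and epsilon. Eif2b3, which encodes gamma, was 1.90 to 2.57 in NPD (median 2.22) and 1.23 to 2.19 in HPD (median 1.41). All 7 HPD rats were below the NPD mean and 5 were below every NPD rat. The difference was -0.65 ± 0.17, which is 0.636 of the NPD signal, with an exact p of 0.0047 over all splits and 0.0033 within slides, and an adjusted p of 0.417 (limma). Its second probe, far from the first in the gene, gave 0.88 to 1.62 (median 1.17) in NPD and -0.14 to 1.35 (median 0.38) in HPD. There 6 HPD rats were below every NPD rat, HPD replicate 1 was not, and the difference was -0.73 ± 0.21.

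Eif2b1, for the alpha subunit, was 0.95 to 1.77 in NPD (median 1.44) and 0.49 to 1.31 in HPD (median 0.66). Again all 7 HPD rats were below the NPD mean, 4 of them below every NPD rat. The difference was -0.59 ± 0.17, 0.662 of the NPD signal, with an exact p of 0.0093 and, within slides, 0.0033. The array carried 10 spots of this probe, whose SD within an array was 0.0812 at the median, against an SD of 0.331 between HPD rats. For Eif2b4, the delta subunit, NPD rats had 3.01 to 3.72 (median 3.51) and HPD rats 2.71 to 3.45 (median 2.92). The groups overlapped, with 4 HPD rats below all of NPD, and within each slide every HPD rat was below every NPD rat. Its difference of -0.36 ± 0.16 had an exact p of 0.043 over all splits. Within slides the mean difference was -0.29, with an exact p of 0.000816, the smallest that the 1225 regroupings can give.

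The other subunits had smaller differences, and the difference from the lower subunits was not tested. Eif2b5, for the catalytic epsilon subunit, was 3.65 to 4.29 in NPD (median 4.11) and 3.84 to 4.15 in HPD (median 3.90). Its difference was -0.11 ± 0.11 with a 95% interval of -0.36 to 0.13, and the NPD range enclosed the HPD range. Eif2b2, for beta, was 6.73 to 7.36 in NPD (median 7.27) and 6.82 to 7.58 in HPD (median 7.26). There the difference was 0.12 ± 0.15, with an interval of -0.19 to 0.44, and the groups overlapped almost entirely. Taking in each rat the median deviation of the 5 subunits from their NPD means, NPD rats lay between -0.22 and 0.23 and HPD rats between -0.70 and -0.13. The difference was present on both slides for the 3 lower subunits: -0.45 and -0.77 for Eif2b3, -0.43 and -0.62 for Eif2b1, and -0.27 and -0.30 for Eif2b4. Counting symbols made of the gene symbol and -ps, RefSeq names no pseudogene for any of the 5 genes. It names such pseudogenes for 36 others of the 63. Among them are 5 for Eef2, 8 for Eif4a1, 10 for Eif4e, 11 for Eif5 and 1 each for Eif3d, Eif3g, Eif3s6ip, Eef2k and Eif1ax. Pseudogenes under other names were not counted, and what copies add to the signal of a probe was not tested.

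**Figure D2:**
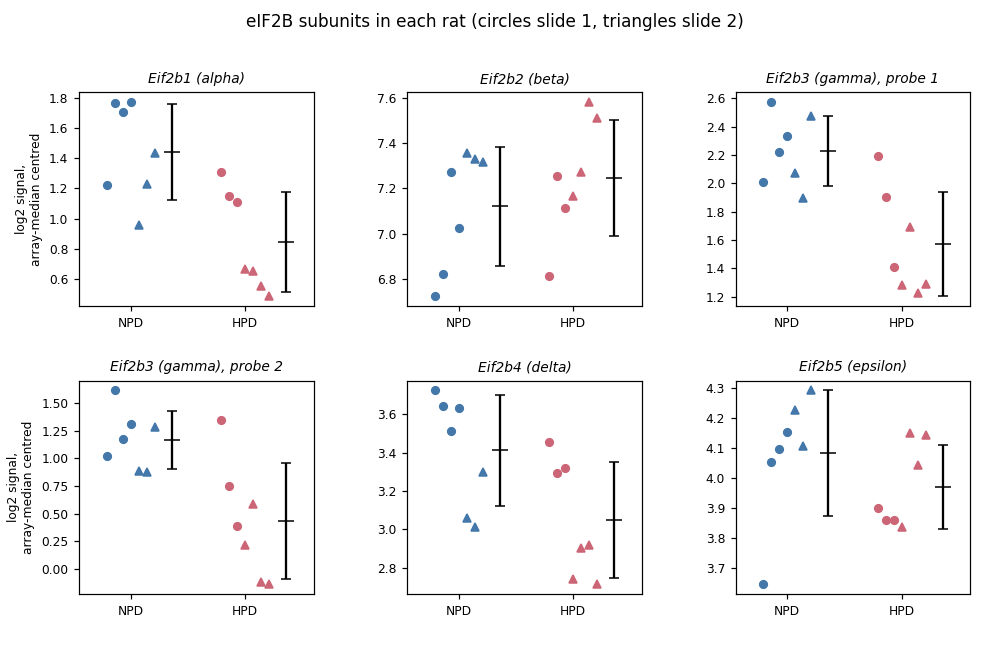
Array-median-centred log2 signal (y axis) of the eIF2B subunits in each NPD (blue) and HPD (red) rat, with circles for slide 1, triangles for slide 2, and the mean ± SD of 7 rats in black. Both Eif2b3 probes, Eif2b1 and Eif2b4 sit lower in HPD with some overlap, while Eif2b2 and Eif2b5 overlap throughout.

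The genes of eIF2, the substrate of eIF2B, were divided. Of the 5 names for eIF2 and other carriers of initiator tRNA, 3 were lower and 2 higher, with none at an unadjusted p under 0.05. Eif2s1, the alpha subunit that stress kinases phosphorylate, was 5.55 to 6.96 in NPD (median 6.33) and 5.92 to 7.39 in HPD (median 6.69), a difference of 0.28 ± 0.27. Eif2s2, the beta subunit, was 2.90 to 3.25 in NPD (median 3.06) and 2.90 to 3.33 in HPD (median 3.08). Eif2s3x, the gamma subunit that binds GTP and the tRNA, was 5.78 to 6.30 (median 5.92) and 5.68 to 6.34 (median 5.94). For these last subunits the groups coincided, with 95% intervals of the difference of -0.26 to 0.18 and -0.29 to 0.26. Eif2a, a separate initiator tRNA carrier and not the alpha subunit of eIF2, was 2.11 to 3.27 in NPD (median 2.72) and 2.16 to 3.06 in HPD (median 2.26). Of the HPD rats 6 were below the NPD mean, HPD replicate 1 was well above the others, and the difference was -0.34 ± 0.19. Eif2d, another carrier of this kind, was 5.20 to 5.80 (median 5.51) and 5.24 to 6.23 (median 5.52), with a difference of 0.15 ± 0.17.

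The 4 kinases of eIF2-alpha differed in sign. Eif2ak3 encodes PERK, which responds to unfolded proteins in the endoplasmic reticulum. It was 3.61 to 4.32 in NPD (median 3.92) and 3.92 to 4.40 in HPD (median 4.22). Above the NPD mean were 6 of 7 HPD rats, and 2 were above every NPD rat. The difference of 0.26 ± 0.13 had an exact p of 0.038 over all splits and 0.051 within slides, and an adjusted p of 0.444 (limma). Eif2ak4 encodes GCN2, the sensor of uncharged tRNA, and was 4.65 to 5.44 in NPD (median 4.83) and 4.40 to 5.30 in HPD (median 5.16), a difference of 0.15 ± 0.16. Eif2ak1, the heme-regulated kinase, was 5.82 to 6.13 (median 5.95) and 5.77 to 6.09 (median 5.89). Eif2ak2, the kinase PKR that binds double-stranded RNA, was 1.22 to 1.996 (median 1.62) and 0.77 to 2.43 (median 1.41). For Eif2ak1 the groups overlapped, with an interval of -0.24 to 0.16, and for Eif2ak2 the HPD rats spread beyond NPD on both sides.

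Among the 13 subunits of eIF3, the scaffold that holds mRNA and ribosome together, 7 were lower and 6 higher in HPD. The median difference was -0.07 and 2 subunits had an unadjusted p under 0.05, both lower. Eif3d, a subunit that can itself bind the cap of some mRNAs, was 5.22 to 5.53 in NPD (median 5.32) and 4.64 to 5.46 in HPD (median 4.88). All but HPD replicate 1 lay below every NPD rat. The difference was -0.38 ± 0.12, with an exact p of 0.0076 and 0.0065 within slides. Without HPD replicate 1 it was -0.47, with an adjusted p of 0.0976 (limma). Eif3g, an RNA-binding subunit, was 4.68 to 5.11 in NPD (median 4.97) and 4.33 to 4.82 in HPD (median 4.52). All 7 HPD rats were below the NPD mean and 5 NPD rats were above every HPD rat. Its difference was -0.36 ± 0.12, with an exact p of 0.0058 and 0.0016 within slides.

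Eif3s6ip, the older name of Eif3l, was 3.93 to 4.78 in NPD (median 4.50) and 3.67 to 4.41 in HPD (median 3.84). The groups overlapped, with 4 HPD rats below all of NPD, but within each slide they did not, and the difference was -0.35 ± 0.17. Its exact p was 0.076 over all splits. Within slides the mean difference was -0.26, with an exact p of 0.000816, the lowest possible value there. Eif3i was 8.27 to 9.19 in NPD (median 8.76) and 8.16 to 9.48 in HPD (median 8.76), a difference of 0.12 ± 0.22. Its probe lies on chromosome 2 of rn4 while RefSeq places the gene on chromosome 5, and which copy it measured was not tested. By their brightest probes the remaining subunits ran from -0.20 for Eif3b to 0.25 for Eif3j, whose second probe gave -0.05 ± 0.11. The core subunits Eif3a, Eif3b and Eif3c were at 0.23 ± 0.23, -0.20 ± 0.11 and -0.07 ± 0.13, each with a 95% interval that spans 0.

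**Figure D3:**
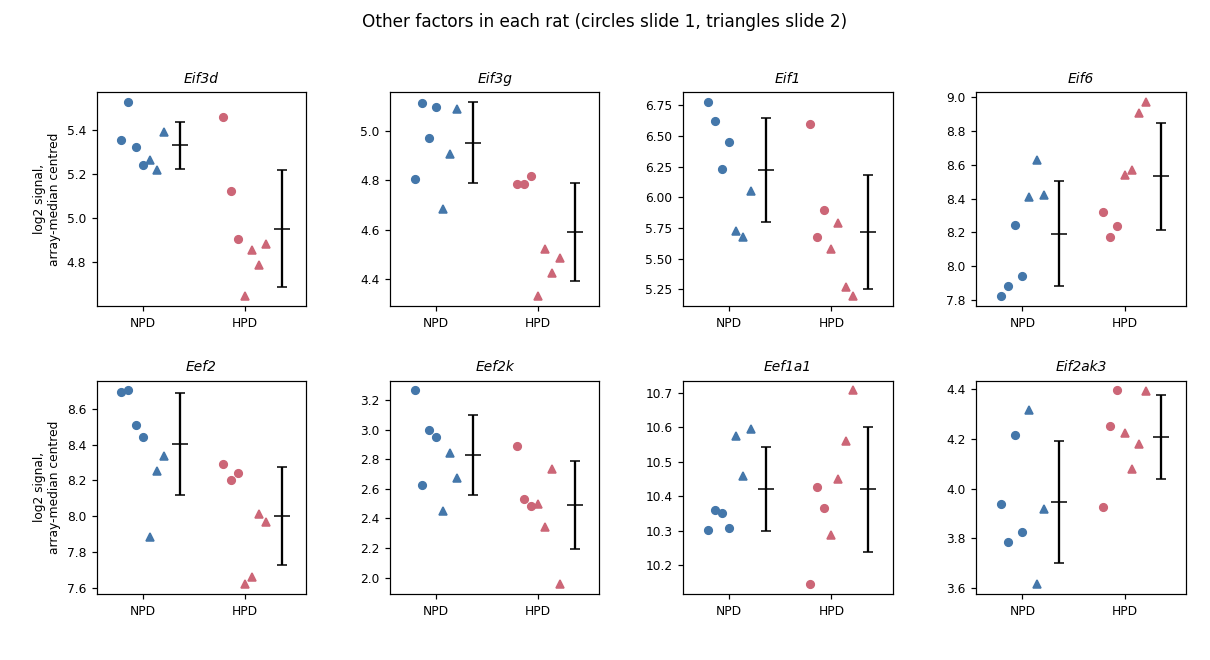
Array-median-centred log2 signal (y axis) of 8 other genes in each NPD (blue) and HPD (red) rat, with circles for slide 1, triangles for slide 2 and the mean ± SD of 7 rats in black. Eif3d, Eif3g, Eif1, Eef2 and Eef2k sit lower in HPD, Eif6 and Eif2ak3 higher, and Eef1a1 at the same mean, with overlap in each panel.

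Of the 11 genes grouped as eIF4 by name, 6 were lower and 5 higher, and none had an unadjusted p under 0.05 by its brightest probe. Eif4a1, the helicase of the cap-binding complex, was 5.09 to 5.86 in NPD (median 5.29) and 4.68 to 5.86 in HPD (median 4.91). Except for HPD replicate 1, which was the highest of all 14 rats, every HPD rat was below every NPD rat. The difference was -0.39 ± 0.18, with an exact p of 0.061 and 0.042 within slides, and -0.53 without HPD replicate 1. A second probe of Eif4a1, nearly as bright, gave -0.42 ± 0.17 and the same exception. Its unadjusted p was 0.023 (limma), with an exact p of 0.027 over all splits and 0.020 within slides. Eif4e2, a cap-binding protein linked to repression of translation, was 4.98 to 5.39 in NPD (median 5.10) and 4.60 to 5.47 in HPD (median 4.82). The same rat was the only one of its group above the lowest NPD value, and the difference was -0.27 ± 0.13. Eif4g2, a scaffold that works without the cap-binding protein, was 8.79 to 9.12 (median 8.95) and 8.82 to 9.40 (median 9.09), a difference of 0.14 ± 0.12. The cap-bound scaffold Eif4g1 was at -0.10 ± 0.12 and Eif4e3 was not well above background.

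Repressors of eIF4E gave small differences, 1 lower and 3 higher. Eif4ebp1, which binds eIF4E until mTORC1 phosphorylates it, was 5.18 to 6.39 in NPD (median 5.88) and 5.65 to 6.57 in HPD (median 5.96), a difference of 0.26 ± 0.23. Eif4ebp2 was 5.55 to 6.16 (median 5.93) and 5.37 to 6.24 (median 6.03), and Eif4enif1, which carries eIF4E into the nucleus, was 3.11 to 3.59 (median 3.47) and 3.27 to 3.55 (median 3.49). All of these overlapped between the diets, and the differences were 0.07 ± 0.16 for Eif4ebp2 and 0.07 ± 0.11 for Eif4enif1.

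The scanning factors were uneven. Eif1, which keeps start codon choice accurate, was 5.68 to 6.78 in NPD (median 6.23) and 5.20 to 6.60 in HPD (median 5.68). Of the HPD rats 6 were below the NPD mean and 4 below every NPD rat. The difference was -0.50 ± 0.23, with an exact p of 0.058 over all splits. Within slides the mean difference was -0.41, with an exact p of 0.029. Its paralog Eif1b was 2.63 to 3.38 (median 3.20) and 2.31 to 3.42 (median 2.68), a difference of -0.30 ± 0.19. Eif1a was 3.71 to 4.22 (median 4.02) and 3.78 to 4.56 (median 4.11), a difference of 0.16 ± 0.14. RefSeq names 8 pseudogenes of Eif1, and a probe cannot separate near-identical copies.

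By their brightest probes all 3 factors of subunit joining were higher in HPD, without passing the test. Eif6 keeps the large ribosomal subunit from joining too early, and was 7.82 to 8.63 in NPD (median 8.24) and 8.17 to 8.97 in HPD (median 8.54). Above the NPD mean were 6 of 7 HPD rats, and the difference of 0.34 ± 0.17 had an exact p of 0.068 over all splits. Within slides the mean difference was 0.27, with an exact p of 0.017. Eif5b, the GTPase that joins the subunits, was 1.85 to 2.85 (median 2.31) and 2.02 to 2.97 (median 2.66), a difference of 0.21 ± 0.19. Eif5, which triggers GTP hydrolysis by eIF2, was 7.40 to 7.95 (median 7.66) and 7.33 to 8.02 (median 7.75), a difference of 0.04 ± 0.13 that was below 0 in 15 of the 33 other ways of processing. A second, dimmer probe of Eif5, well above background on all 14 arrays, went the other way at -0.55 ± 0.25. Its exact p was 0.070 over all splits and 0.017 within slides.

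In elongation the subunits of eEF1 and eEF2 gave different values. Eef1a1, which delivers aminoacyl-tRNA, was 10.30 to 10.59 in NPD (median 10.36) and 10.15 to 10.71 in HPD (median 10.43). Its difference was 0.00 ± 0.11, with a 95% interval of -0.23 to 0.23, but the value depended on the scaling: it was -0.16 after quantile normalization, -0.17 after cyclic loess and -0.15 with normexp, and with normexp and slide together the gene was called (adjusted p = 0.081, limma). Eef1b2, an exchange factor for eEF1A, was 9.48 to 10.31 (median 9.76) and 9.53 to 10.51 (median 9.93). For Eef1a1 1 HPD rat was above every NPD rat and 2 were below every NPD rat, and for Eef1b2 2 HPD rats were above all of NPD. The exchange factor subunits Eef1d and Eef1g were at 0.05 ± 0.16 and 0.10 ± 0.20. RefSeq names 20 pseudogenes of Eef1a1 and 16 of Eef1g. Eef1a2, the form of muscle and nerve, was 3.32 to 4.47 (median 3.56) and 3.62 to 5.28 (median 4.17), a difference of 0.47 ± 0.27. Eef1e1 matched the rule by name but encodes a scaffold of the aminoacyl-tRNA synthetase complex. It was 3.79 to 4.75 (median 4.42) and 3.51 to 4.87 (median 3.997), a difference of -0.29 ± 0.21.

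Eef2, the translocase, was 7.88 to 8.70 in NPD (median 8.44) and 7.62 to 8.29 in HPD (median 8.01). All 7 HPD rats were below the NPD mean, and 5 NPD rats were above every HPD rat. The difference was -0.40 ± 0.15, or 0.756 of the NPD signal, the same on both slides at -0.34, with an exact p of 0.021 over all splits and 0.0057 within slides. Eef2k, the kinase that phosphorylates eEF2 and stops it, was 2.45 to 3.27 (median 2.84) in NPD and 1.95 to 2.89 (median 2.50) in HPD. Its difference was -0.34 ± 0.16 with an exact p of 0.041 over all splits and 0.051 within slides, and a second, dimmer probe gave -0.66 ± 0.28. Eif5a, which helps ribosomes through difficult peptide bonds, was 7.20 to 7.57 in NPD (median 7.43) and 7.09 to 7.36 in HPD (median 7.29). All 7 HPD rats were below the NPD mean, by a small difference of -0.16 ± 0.10 with an exact p of 0.030 and 0.047 within slides. The paralog Eif5a2 was not well above background on any array, at -4.49 to -3.55 and -4.46 to -3.01.

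The Argonautes that share the old names were at 2.74 to 3.18 in NPD (median 2.92) and 2.71 to 3.17 in HPD (median 2.89) for Eif2c2. Eif2c4 was -0.63 to 1.35 (median 0.35) and -0.28 to 1.74 (median 1.43), a difference of 0.62 ± 0.37, the highest of the 63. Eif2c3, well above background on 7 of 14 arrays, was -2.70 to -1.40 (median -1.62) and -2.37 to -1.19 (median -1.97). Without them 31 of 60 genes were lower and the median was -0.01.

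Several probes per gene showed how far a value rested on the probe that measured it. Probes of a gene differ both in position and in signal, and which of these goes with the difference was not tested. Of the 16 genes with more than 1 probe, 7 had probes of opposite sign, and in 13 the brightest probe had a higher difference than the mean of the others. The 7 were Eef1g, Eif2ak2, Eif3h, Eif3j, Eif4e, Eif4g2 and Eif5. Beside its brightest probe Eef1g had a probe at -0.10 ± 0.14, Eif2ak2 at 0.18 ± 0.28 and Eif3j at -0.05 ± 0.11. Eif4g2 had others at 0.13 ± 0.17, -0.19 ± 0.19 and 0.18 ± 0.19, the last not well above background. The genes singled out here were chosen after their values were seen. Eif1ax, the X-linked eIF1A, was at -0.04 ± 0.12 by its brightest probe (X:56705025-56705084 of rn4, minus strand), printed below, and at -1.06 ± 0.33 by a probe that starts 4273 bases away on rn4, with both on the same strand.
Eif1ax, brightest probe: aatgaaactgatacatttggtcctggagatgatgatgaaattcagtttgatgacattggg
At the brightest probe NPD rats had 2.69 to 3.11 and HPD rats 2.57 to 3.19, while at the other they had 1.30 to 2.74 and 0.15 to 2.45. The second probe had an exact p of 0.016 and 0.0065 within slides, and the first 0.732. Eif4e, the cap-binding protein, was at 0.10 ± 0.14 and -0.69 ± 0.34 by its probes, Eif5 at 0.04 ± 0.13 and -0.55 ± 0.25, and Eif3h at 0.08 ± 0.21, -0.07 ± 0.10 and -0.46 ± 0.15. The probes differed little for Eif2b3, Eif4a1, Eif4b, Eif3k, Eef1d and Eif2s3x, by 0.00 to 0.08. Counting every probe, 14 of 82 had an unadjusted p under 0.05, in 12 genes.

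**Figure D4:**
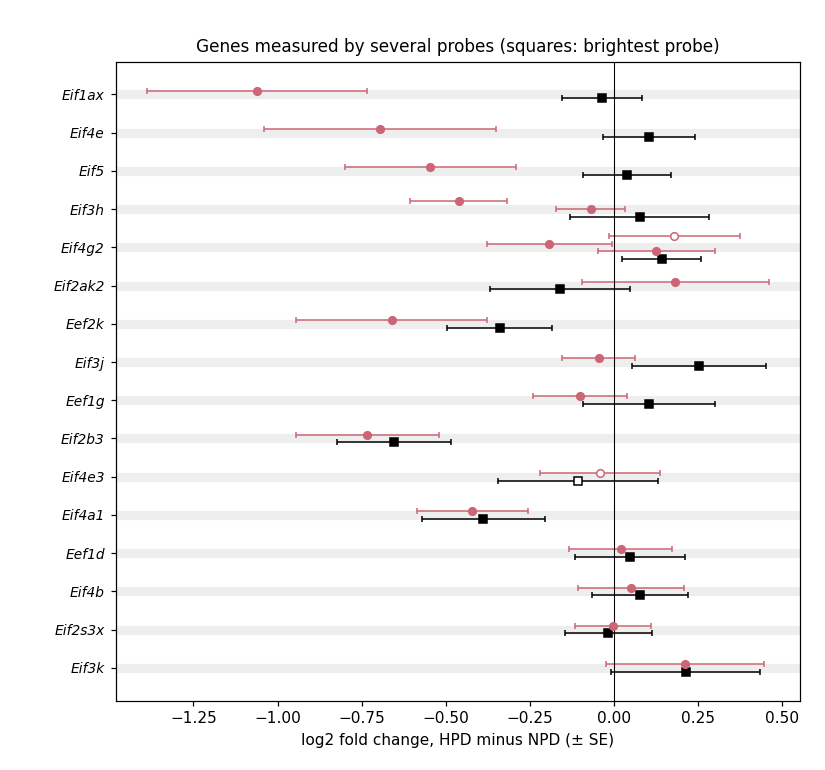
Difference in log2 signal between HPD and NPD (x axis, bars are SE, n = 7 rats per group) for each probe of the 16 genes measured by several, sorted by how far the probes differ. Black squares are the brightest probe, circles the others, and open symbols were well above background on under 7 arrays. Eif1ax, Eif4e, Eif5 and Eif3h have a dimmer probe far below the brightest one.

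Genes that act beside the factors were also counted. Of the mTORC1 and S6 kinase genes, which couple nutrients to initiation, 7 were lower and 8 higher of 15, with 1 at an unadjusted p under 0.05 (5.55% of all probes were so lower). Mtor itself was lower in all 7 HPD rats than the NPD mean, at -0.31 ± 0.14 (exact p of 0.031, and 0.0024 within slides). Rheb, the GTPase that activates mTORC1, was at -0.28 ± 0.13, and Rps6kb2, an S6 kinase, at 0.22 ± 0.12 with all 7 HPD rats above the NPD mean. Of 6 genes for hypusine and diphthamide, the modified residues of eIF5A and eEF2, 1 was lower and 5 higher. The lower one was Dhps, the enzyme of the first step towards hypusine on eIF5A, at -0.47 ± 0.17 with an exact p of 0.022 and 0.0024 within slides. Dohh, the next enzyme, was at 0.21 ± 0.20 and Dph3 at 0.16 ± 0.18. None of these lists had a gene called.

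The integrated stress genes, targets and regulators of eIF2-alpha phosphorylation, were higher in 6 of 6, none at an unadjusted p under 0.05 and with a median of 0.16 against 0.11 for all probes. Ddit3, encoding CHOP, was at 0.28 ± 0.19, Gcn1l1, an activator of GCN2, at 0.19 ± 0.18 and Atf4 at 0.13 ± 0.14. Of the release and recycling factors 2 were lower and 2 higher, with Gspt1 at 0.22 ± 0.18, Etf1 at -0.07 ± 0.10 and Gspt2 at -0.13 ± 0.22. Of the poly(A)-binding group 2 were lower and 3 higher, with Pabpc1 at 0.30 ± 0.20, Paip1 at 0.11 ± 0.12 and Paip2 at 0.14 ± 0.20. Of 5 reinitiation genes 1 was lower, Abcf3 at -0.42 ± 0.25, and 4 higher, with Mcts1 at 0.26 ± 0.22 and Mcts2 at 0.17 ± 0.17.

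How many factors were called depended on the processing. With normexp background correction 14 of 63 were called lower and 0 higher, where 6.15% of all probes were called lower and 10.8% higher. From the deposited gene table with slide as a block 14 were called lower and 0 higher, against 6.54% and 3.96% of its genes. The lists shared 11 genes, 78.6% of each: Eif2b1, Eif2b3, Eif2b4, Eif3b, Eif3d, Eif3g, Eif3s6ip, Eif4a1, Eif5a, Eef2 and Eef2k. With normexp and slide together, chosen after seeing the data, 21 were called lower and 2 higher, against 10.6% and 17.3% of probes. Without HPD replicate 1 the factors called by their brightest probe were Eif2b3 and Eif3d, both lower, where 0.283% of probes were called lower and 0.214% higher. Their adjusted p was 0.0976 in each case (limma). Called as well were the second probes of Eif2b3 at -0.89, Eif1ax at -1.29 and Eif4a1 at -0.55. Their adjusted p was 0.0976, 0.0976 and 0.0989 (limma). In the deposited table the probes of a gene are averaged, so that its calls of Eif1ax and Eif3h rest on probes that differed.

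**Figure D5:**
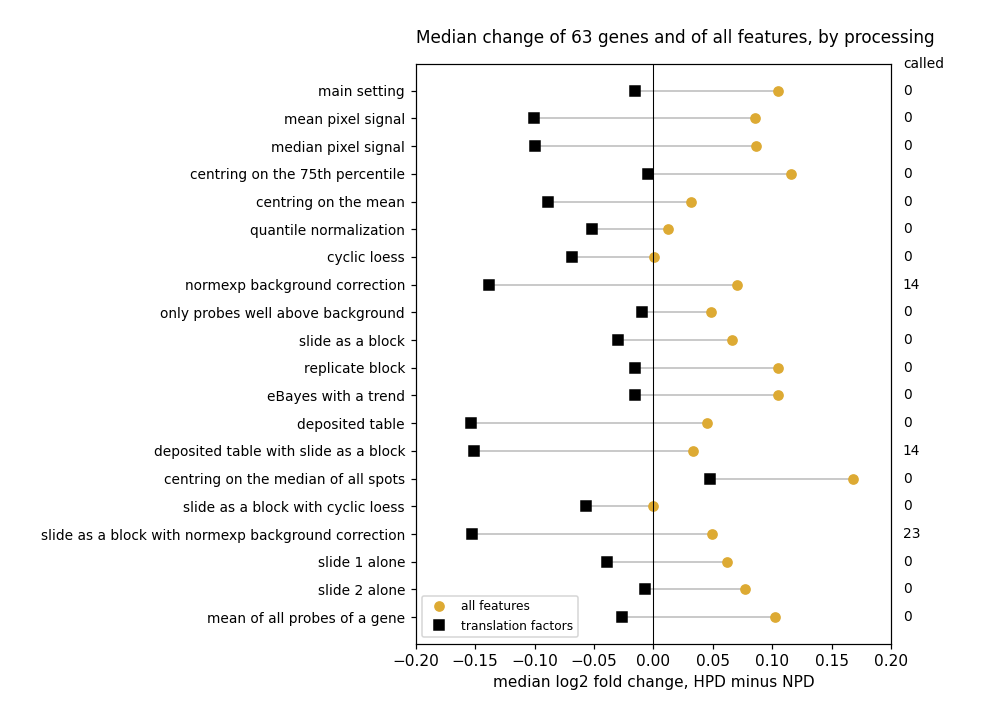
Median log2 difference (x axis, HPD minus NPD) of the translation factors (black squares, 63 genes, or 60 with only probes well above background) and of all features (yellow circles) under each way of processing with all arrays or 1 slide (y axis), with the number of the factors called at the right. The factors' median lies below that of all features under each of them, and factors were called in 3 of those shown, with 14, 14 and 23 genes.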

How the data were processed

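Colonocyte RNA of 7 NPD and 7 HPD rats was measured on 1-colour Agilent rat arrays. The authors deposited scanner output for each array, with spot intensity (processed, mean, median and background signals) and other flags, including whether a spot was well above background. They also deposited a log2 table per gene name. It equalled the log2 median pixel intensity shifted by a constant per array and averaged over the spots of a name (100% of values within 0.001 for 25161 names). The submitters' processing notes name Agilent Feature Extraction 10.7.3.1 and limma. Samples the authors removed as outliers were not analysed here, and 0 columns belonged to other samples.

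Control spots and outlier spots were left out, processed intensity was log2-transformed, spots of a probe were averaged, and arrays were centred on the median over 30367 probes. No filter on low signal was applied, and 60 of the 63 genes had all arrays of a group well above background. The difference between diets was fitted per probe in R 4.3.3 by limma 3.58.1, using lmFit and eBayes without further covariates, and p-values were adjusted by Benjamini-Hochberg over all probes (threshold 0.1). Exact permutation tests used all 3432 splits or the 1225 regroupings within slides, slides being read from the array headers. Both were run for the probes of the 63 genes, the genes of the other lists and the median intensity of the arrays, the test within slides also for all probes with a value on every array, and all were left unadjusted. The number of arrays limits the precision. The fit was tested on simulated data with independent noise and no slide effect. The planted changes were larger than the difference of any of the 63 genes by its brightest probe, so smaller differences were not tested.

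The members and lists were chosen with earlier results of these data known. The named genes were, in each complex, the 3 with the smallest unadjusted p and the one with the brightest probe, with all subunits of eIF2 and eIF2B and any called gene. From each of the 6 lists of related genes, the 3 with the smallest p were named. Eif1ax, Eif3a, Eif3b, Eif3c, Eif3h, Eif3j, Eif4e, Eif4e3, Eif4g1, Eef1d and Eef1g lie outside this rule and were chosen after their values were seen. The immune marker list as a whole is not reported here, and the markers named by their p were chosen after their values were seen. Gene names are those of the array. They were matched to RefSeq (GRCr8) by transcript accession for 54 genes, by symbol for 6 and by synonym for 3, and 36 have pseudogenes named for them. Probe positions are those of rn4, given for 80 of 82 probes. Alternatives were raw pixel signals (mean or median), other centrings (75th percentile, mean, all spots), quantile and cyclic loess normalization, normexp (offset 50), a filter on dim probes, slide or replicate number as a block, a trend in eBayes, the deposited table, a threshold of 0.05, the mean of all probes, each array left out, and each slide alone. Centring on all spots, slide combined with loess or normexp, and each slide alone were chosen after seeing the data.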

Additional observations from a re-analysis of the deposited data

Results flagged for a closer look

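Among the 41 named genes, 7 of 82 groups held a rat whose gap to its nearest neighbour was large for the range of its group (Dixon's ratio above its critical value for 7 samples). Chance alone gives about 1 in 20. In 5 of the 7 the rat was HPD replicate 1: the highest of its group for Eif2a (ratio 0.726), Eif4a1 (0.676) and Eif4e2 (0.670), and the lowest for Eif2ak4 (0.609) and Eif4enif1 (0.709). Without it the differences were -0.46 for Eif2a, -0.53 for Eif4a1, -0.37 for Eif4e2, 0.26 for Eif2ak4 and 0.10 for Eif4enif1, in place of -0.34, -0.39, -0.27, 0.15 and 0.07. By its brightest probe none of these was called without it (limma adjusted p of 0.115 to 0.538). The second probe of Eif4a1 was (limma adjusted p of 0.0989). The others were NPD replicate 5, the highest NPD rat for Eif2ak4 (0.616), and NPD replicate 1, the lowest NPD rat for Eif2b5 (0.632), without which the differences were 0.24 and -0.18.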

How the results depend on the processing

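Same-numbered rats correlated in their deviations at -0.0899 to 0.386. The lowest value was for number 4, the only number whose rats lay on different slides. Rats of different number were not compared, so these values cannot show whether the numbers pair the rats. The main fit was left unpaired. With the number as a replicate block 0 factors were called, 18 had an unadjusted p under 0.05 and 8 probes in all were called. 0 factors were called in the other settings except normexp (14), the deposited table blocked on slide (14), slide with normexp (23) and the array left out below. Factors lower in HPD numbered 53 with the deposited table and slide and 52 with slide and normexp, against 33. Factors with an unadjusted p under 0.05 numbered 17 with either raw pixel signal, mean or median, 24 with normexp, 23 with the deposited table, 26 with that table and slide, 17 with slide and loess, 28 with slide and normexp and 3 on slide 1 alone, against 8. All probes called numbered 5142 with normexp, 27 with slide, 2758 with the deposited table and slide, 40 with slide and loess, 8479 with slide and normexp, 1 on slide 1 alone and 0 on slide 2 alone, against 17. The causes were not tested.

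Leaving out each array in turn gave 0 to 2 factors called, 30 to 36 lower, 5 to 17 with an unadjusted p under 0.05 and 9 to 151 probes called, with 2 called, 17 under 0.05 and 151 probes without HPD replicate 1. Of the 41 named genes 23 kept their sign in all 33 alternatives, among them Eif2b1 (-0.68 to -0.43), Eif2b3 (-0.77 to -0.45), Eif3d (-0.51 to -0.20) and Eef2 (-0.55 to -0.34), 18 changed sign in at least 1, and 19 were called in at least 1. Low signal limits Eif4e3, Eif5a2 and Eif2c3, which were not well above background on every array of either group.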

Other observations

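A pyrimidine tract at the transcription start marks many mRNAs of the translation machinery. The 20 bases around the annotated start (10 on each side, RefSeq, GRCr8) were read in the sense of the mRNA. A C followed by at least 5 bases each C or T was looked for there. It was present in 10 of the 54 translation factors with an entry, or 18.5%, and in 13.6% of all 33469 promoters. Of the 10 factors 8 were lower in HPD, with a median difference of -0.11, and of the 44 without it 21 were lower, with a median of 0.01. The 8 took in Eef1a1 at -0.0013, Eif2s3x at -0.0178 and Eef1e1, which is no elongation factor. At most 1 promoter was taken per factor, while all 33469 were counted for the share. A tract wholly before the start was counted as well, as in Eif3f, so a hit need not lie in the mRNA. Whether the tract goes with the difference was not tested.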
